A study of Mus musculus with 16 samples.

Results

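Most of 9 genes known as targets of the let-7 microRNAs were higher in early B-lineage cells of the mouse fetal liver than in those of adult bone marrow. The 9 genes were Nras, Cdc25a, Cdc34, E2f5, E2f6, Plagl2, Hic2, Tgfbr1 and Igf1r, chosen by symbol as let-7 targets other than Lin28b and the genes usually studied with it. They are 9 of the 21710 genes or unnamed transcripts that were tested, and each had at least 1 probe that passed the filter on dim probes. In pre-pro-B cells 5 of the 9 passed a test as higher in fetal liver, beside 12.3% of all genes tested, and in pro-B cells 8 of the 9 did, beside 13.9%. None of the 9 was lower in fetal liver by the test in either fraction.

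The animals were BALB/c mice with no genetic change or treatment given in the labels. Each of 4 bone marrow sorts pooled 16 adult female mice, and each of 4 fetal liver sorts pooled the embryos of 1 mother at day 16 of gestation, on average 8 embryos. From every sort came 1 sample of pre-pro-B cells (Fr.A in the Hardy scheme) and 1 of the pro-B cells that follow (Fr.B/C), so that 16 samples formed 4 groups of 4. Amplified RNA, made from 100 ng of total RNA, was hybridised on dual-colour Agilent arrays with a reference common to all arrays, total RNA of 6 cell lines: P388d, DN3, EL4, J558, RS2 and R1. Tissue and age changed together, since all bone marrow was adult and all liver fetal.

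The let-7 microRNAs pair through their seed, bases 2 to 8, with sites in messenger RNAs, which lowers the stability and translation of those messengers. Lin28 proteins block the maturation of let-7, and Lin28b is known to be active in fetal and not in adult lymphoid progenitors. Targets of let-7 include growth factor receptors, Ras proteins and cell cycle genes. The mature forms below, taken from RefSeq (GRCm38.p6), are shown because the 9 genes share only their known regulation by this family. Capitals mark the seed.
let-7a-5p: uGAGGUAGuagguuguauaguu
let-7b-5p: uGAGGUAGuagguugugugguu
let-7c-5p: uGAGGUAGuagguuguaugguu
let-7d-5p: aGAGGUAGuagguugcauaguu
let-7e-5p: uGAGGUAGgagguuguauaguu
let-7f-5p: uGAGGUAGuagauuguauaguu
let-7g-5p: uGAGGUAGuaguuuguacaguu
let-7i-5p: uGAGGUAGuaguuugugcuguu
let-7k: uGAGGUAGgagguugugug
miR-98-5p: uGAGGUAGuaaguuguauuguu
let-7j: uGAGGUAUuaguuugugcuguuau

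Of these 11 forms, listed under 13 genes in the records used here, 10 carry the seed GAGGUAG and 1, let-7j, carries GAGGUAU. Those records may not hold every gene that encodes a form. The let-7i gene's mature strand lies at chr10:122985698-122985719 on the minus strand and that of let-7g at chr9:106178846-106178867 on the plus strand. The arrays measured messenger RNA, so the levels of let-7 are not analysed here.

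The value of a gene on an array is the log2 ratio of sample to reference, so 0 means as bright as the reference and a difference of 1 between groups is a doubling of the ratio. The median sample signal of the arrays ran from 71.2 to 162 intensity units, and 53% to 68.4% of the probes were well above background. The reported probes of all 9 genes were well above background on 16 of 16 arrays and saturated on none. The arrays numbered 1 and 2 mostly deviated from their group's mean together, as did those numbered 3 and 4, and against the other set. Across genes these deviations correlated within a set at -0.0493 to 0.765 (median 0.594, 8 pairs) and between sets at -0.856 to -0.53 (median -0.788). The lowest within a set, -0.0493, was arrays 1 and 2 of fetal liver Fr.A. The 4 deviations of a gene in a group cancel out, which by itself pushes correlations between arrays of a group below 0. No scan session held arrays of both tissues, and tissue and session cannot be told apart. With 4 arrays in a group, precision is set by the number of arrays.

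**Figure D1:**
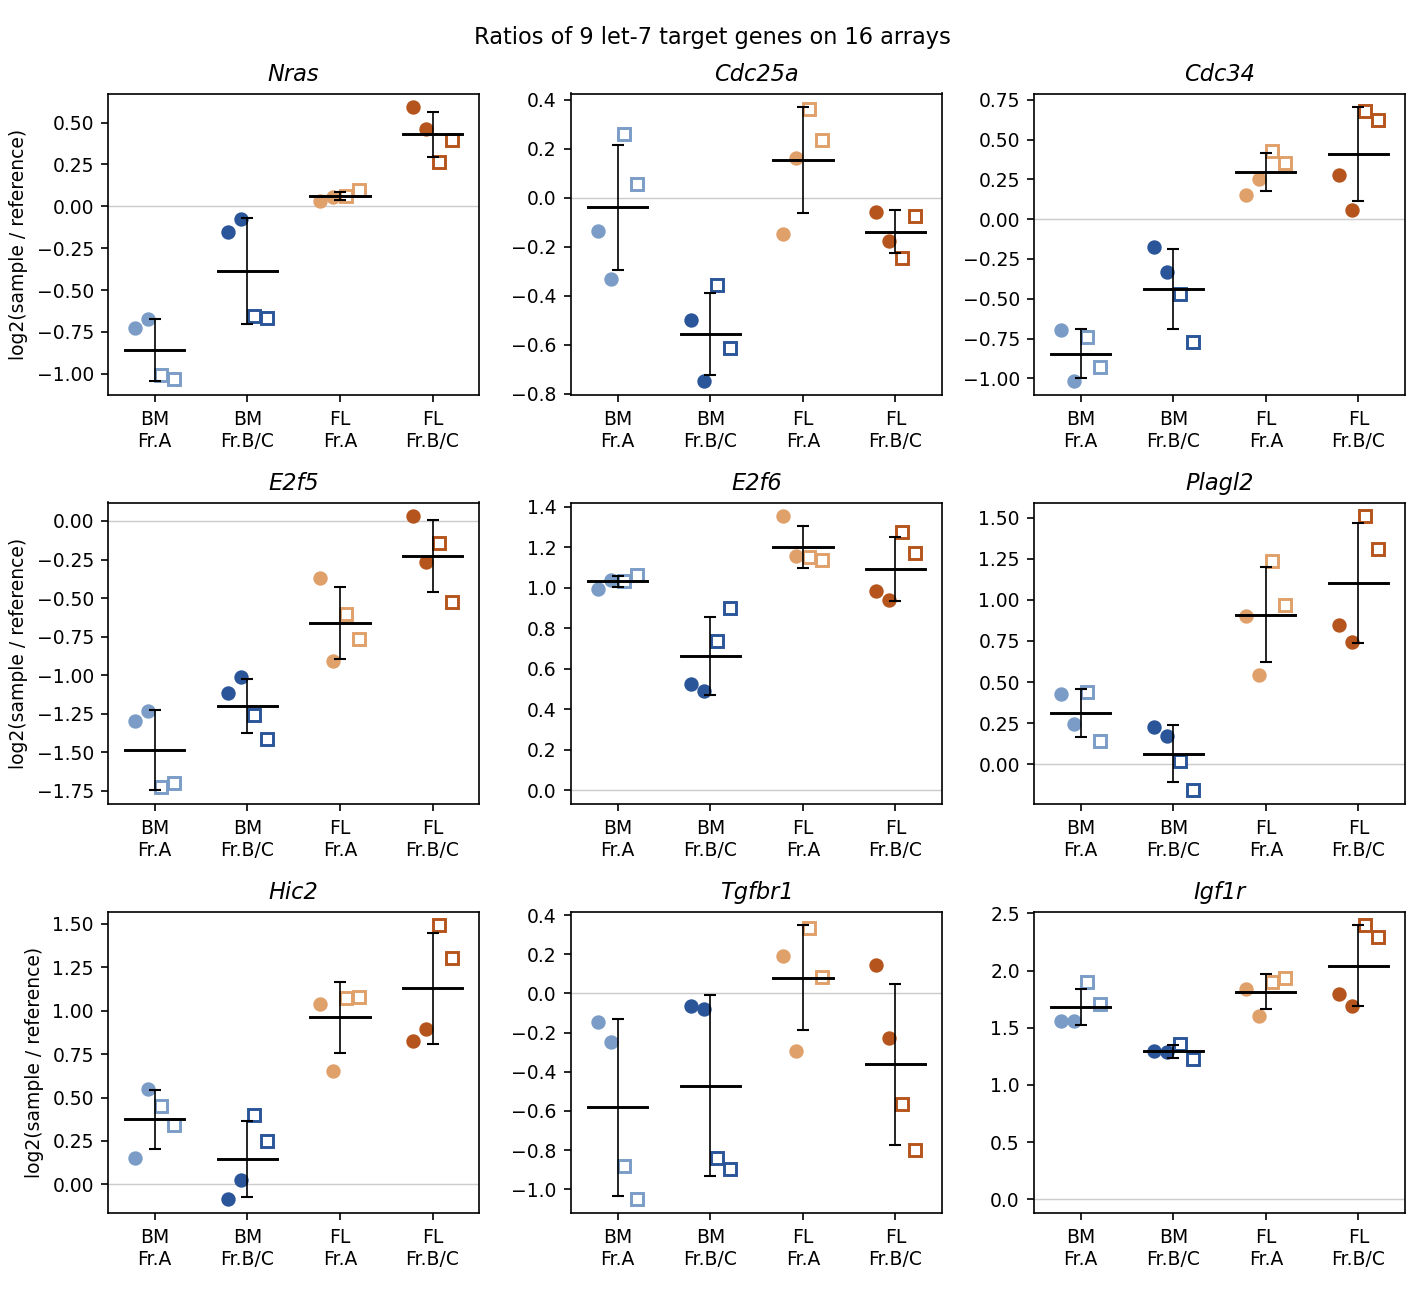
Log2 ratio of sample to reference (vertical axis) of the 9 genes in each of the 16 arrays, by group. Filled circles are arrays 1 and 2, open squares arrays 3 and 4, the line is the mean and the bar the SD (n = 4). Both fetal liver groups of Cdc34, E2f5, Plagl2 and Hic2 lie above both bone marrow groups, and the groups of Tgfbr1 overlap.

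In Fr.A 5 of the 9 genes passed higher in fetal liver at an adjusted p under 0.05 (limma, Benjamini-Hochberg over all genes), and none passed lower. Over all 21710 genes 12.3% passed higher and 17.3% lower. The fetal liver and bone marrow arrays did not overlap for 6 of the 9, all with fetal liver higher, against 10.8% of all genes. The median difference of the 9 was 0.60 on the log2 scale, and that of all genes was -0.0149. In Fr.B/C 8 of the 9 passed higher and none lower, with 13.9% of all genes higher and 14.7% lower. There 8 of the 9 did not overlap, against 14.4% of all genes, and the median difference was 0.82 beside 0.0148 for all genes. All 9 estimates were above 0 in both fractions, but with median centring Igf1r was at -0.0699 in Fr.A and Tgfbr1 at -0.134 in Fr.B/C. When arrays were only centred on their median, in place of the loess curve, 3 of the 9 passed in Fr.A and 5 of the 9 in Fr.B/C. The share of all genes passing higher under that setting was not computed, so these counts stand without a background. The labels describe 4 separate sorts per tissue. Whether arrays 1 and 2, or 3 and 4, also share RNA is not stated, and if they do, n = 4 counts too many samples and the p-values are too small. With the arrays of each set averaged, 4 of the 9 passed higher in Fr.A and 6 of the 9 in Fr.B/C. There 3924 and 3655 of the 21710 genes passed in either direction, and the share passing higher was not computed. In such pooled cells, fewer cells of a type and less RNA per cell cannot be told apart.

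**Figure D2:**
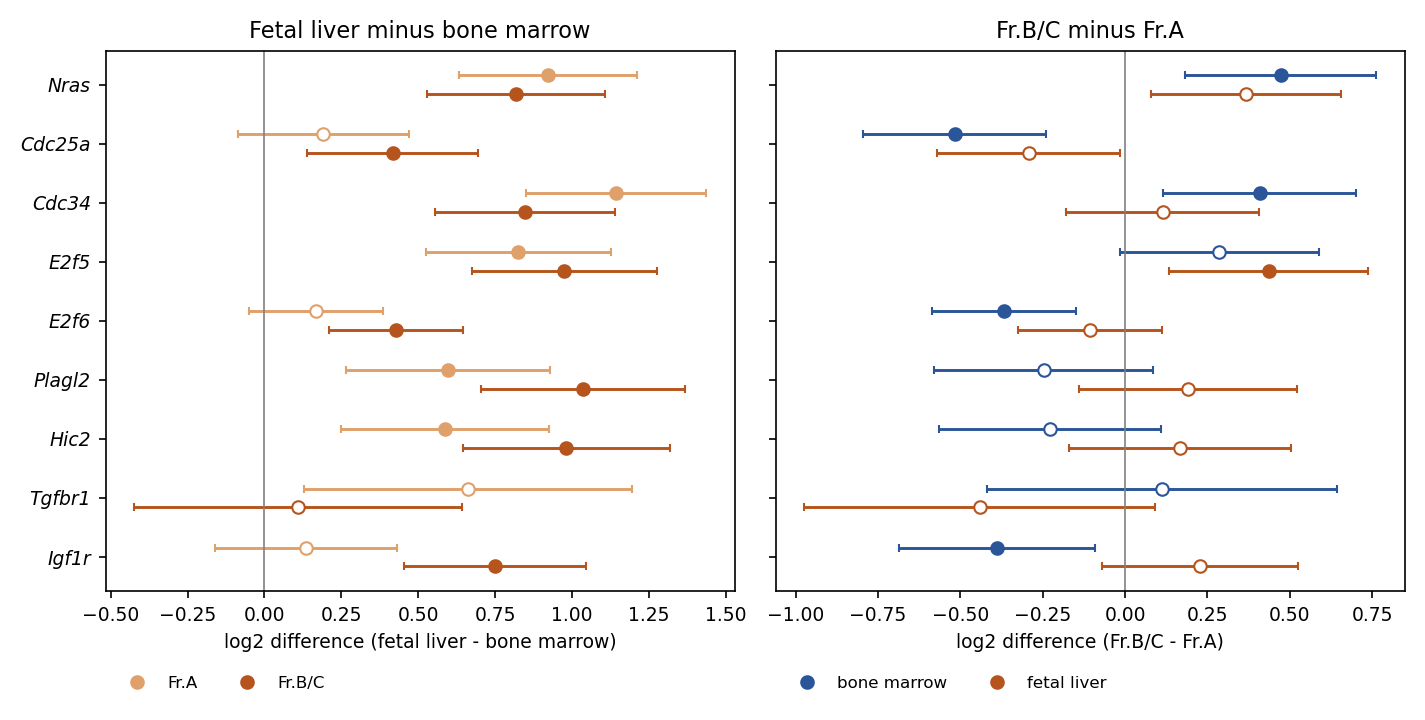
Log2 differences of the 9 genes between fetal liver and bone marrow (left) and between Fr.B/C and Fr.A (right), with 95% confidence intervals (horizontal axis). Filled points passed at an adjusted p under 0.05 and open points did not. On the left 5 points of Fr.A and 8 of Fr.B/C are filled, all above 0, while the right panel has 3 filled points below 0 and 2 above in bone marrow.

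Nras encodes a Ras GTPase that carries growth factor signals to the MAP kinases, and its reported probe rose at both stages in fetal liver. In arrays 1 to 4 its log2 ratio was -0.73, -0.67, -1.01 and -1.03 in bone marrow Fr.A and -0.15, -0.08, -0.65 and -0.67 in bone marrow Fr.B/C. In fetal liver it was 0.03, 0.06, 0.06 and 0.09 in Fr.A and 0.59, 0.46, 0.27 and 0.40 in Fr.B/C. Within each tissue Fr.B/C lay above Fr.A, both fetal liver groups lay above both of bone marrow, and no group overlapped the next. Fetal liver exceeded bone marrow by 0.92 ± 0.14 (SE, n = 4 in each group) in Fr.A, a 1.90-fold difference (limma adjusted p = 9.98e-05). In Fr.B/C the difference was 0.82 ± 0.14, or 1.76-fold (limma adjusted p = 0.000336). A second probe, whose design position starts 1698 bases away on chromosome 3, gave another picture. It read 0.34, 0.34, 0.10 and -0.11 in bone marrow Fr.A and 0.10, 0.02, 0.20 and 0.10 in fetal liver Fr.A. In Fr.B/C it read 0.02, -0.02, -0.09 and -0.12 in bone marrow and 0.17, 0.09, -0.39 and -0.38 in fetal liver. For that probe the tissues overlapped at both stages, with fetal liver minus bone marrow at -0.0641 ± 0.132 (SE) in Fr.A, against -0.0733 ± 0.132 in Fr.B/C. The mean of both probes kept the call at a smaller size, 0.429 in Fr.A (limma adjusted p = 0.0148) and 0.372 in Fr.B/C (limma adjusted p = 0.0327). Which transcripts each probe detects was not tested, so the rise of Nras rests on 1 of its 2 probes.

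**Figure D3:**
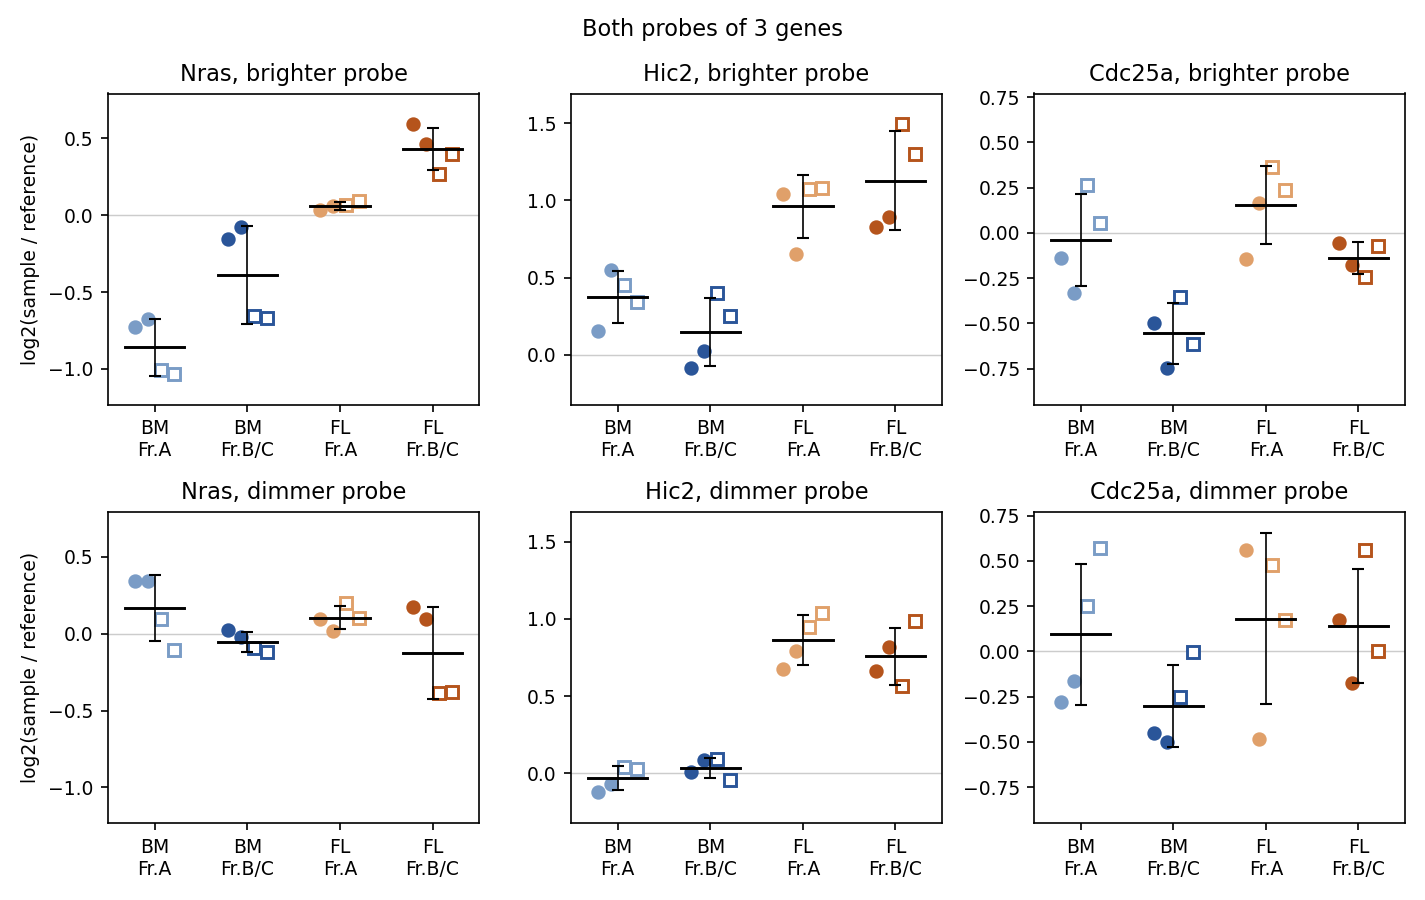
Log2 ratios of sample to reference in each array for the genes with 2 kept probes (Nras, Cdc25a and Hic2), the reported probe beside the other one. Filled circles are arrays 1 and 2, open squares arrays 3 and 4, lines are means and bars SD (n = 4). Fetal liver lies above bone marrow with both probes of Hic2, and with the reported probe but not the other probe of Nras.

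Igf1r encodes the receptor tyrosine kinase for insulin-like growth factors, and it was higher in fetal liver Fr.B/C. Its ratio was 1.56, 1.56, 1.90 and 1.71 in bone marrow Fr.A and 1.84, 1.60, 1.90 and 1.93 in fetal liver Fr.A. In Fr.B/C it was 1.30, 1.29, 1.36 and 1.23 in bone marrow and 1.79, 1.69, 2.40 and 2.29 in fetal liver. The 2 tissues overlapped in Fr.A and stood apart in Fr.B/C, where bone marrow was the lowest of the 4 groups. The Fr.A difference was 0.14 ± 0.14 (SE, 95% confidence interval -0.16 to 0.43, limma adjusted p = 0.526). The Fr.B/C difference was 0.75 ± 0.14, or 1.68-fold (limma adjusted p = 0.000843). It was 0.451 in arrays 1 and 2 and 1.05 in arrays 3 and 4.

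Tgfbr1 encodes the type I receptor kinase for TGF-beta, and it did not pass between the tissues. Its ratio was -0.15, -0.25, -0.88 and -1.05 in bone marrow Fr.A and -0.07, -0.08, -0.84 and -0.90 in bone marrow Fr.B/C. In fetal liver it was 0.19, -0.29, 0.33 and 0.08 in Fr.A and 0.14, -0.23, -0.56 and -0.80 in Fr.B/C. All neighbouring groups overlapped, and in 3 of the 4 groups arrays 3 and 4 were the lowest. Fetal liver minus bone marrow was 0.66 ± 0.25 (SE, 95% confidence interval 0.13 to 1.20, limma adjusted p = 0.0589) in Fr.A and 0.11 ± 0.25 (-0.42 to 0.64, limma adjusted p = 0.789) in Fr.B/C. The spread of the ratio came with the reference channel: its normalised log2 signal was 9.61, 9.7, 10.4 and 10.6 on the bone marrow Fr.A arrays, while the sample channel was 9.46, 9.46, 9.56 and 9.52. In fetal liver Fr.A the sample channel itself was higher on arrays 3 and 4, at 9.91, 9.66, 10.7 and 10.6. With the sample channel alone the Fr.A difference was 0.723 (limma adjusted p = 0.00335). The Fr.A difference was 0.148 in arrays 1 and 2 and 1.18 in arrays 3 and 4. It passed without bone marrow Fr.A array 1 (0.782, limma adjusted p = 0.0445) or array 2 (0.822, adjusted p = 0.0294), and without bone marrow Fr.B/C array 2 (adjusted p = 0.0469) or array 3 (adjusted p = 0.0477). A second probe was well above background on 1 of 16 arrays and was left out.

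**Figure D4:**
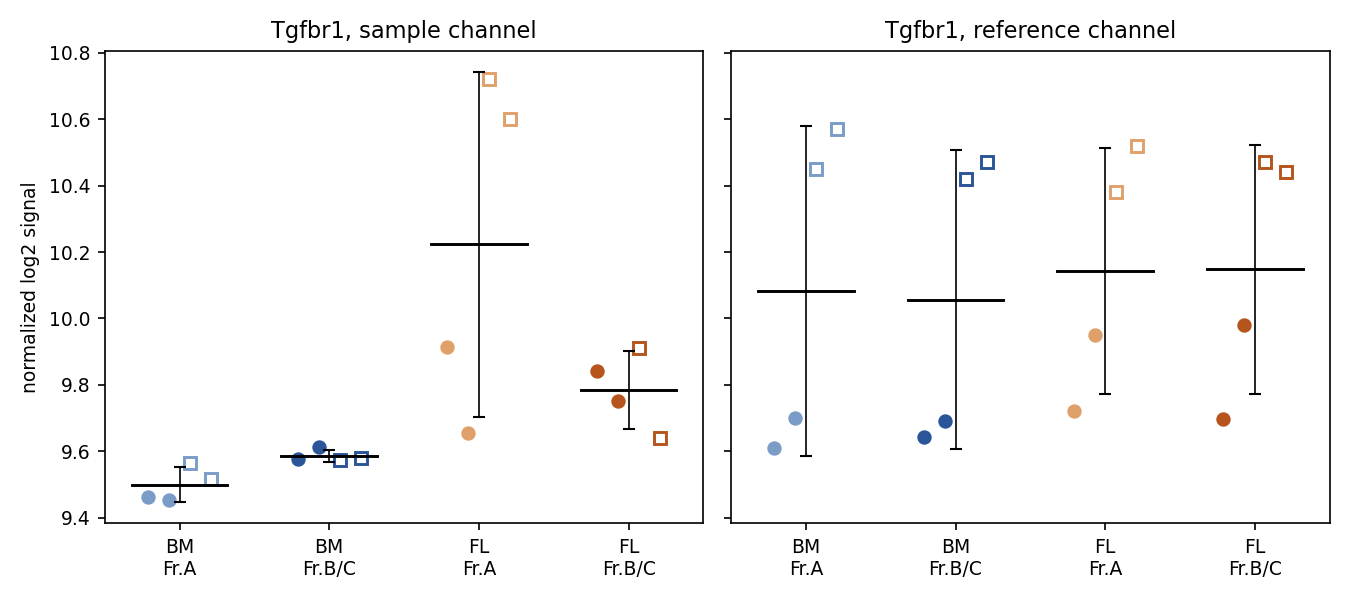
Normalised log2 signal of Tgfbr1 in the sample channel (left) and the reference channel (right) of each array, by group. Filled circles are arrays 1 and 2, open squares arrays 3 and 4, lines are means and bars SD (n = 4). The reference signal of arrays 3 and 4 lies above that of arrays 1 and 2 in all 4 groups.

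The cell cycle genes were Cdc34 and Cdc25a. Cdc34 encodes the ubiquitin-conjugating enzyme that works with SCF ligases to mark cell cycle inhibitors for degradation, and it was higher in fetal liver at both stages. Its ratio was -0.70, -1.02, -0.74 and -0.93 in bone marrow Fr.A and -0.18, -0.33, -0.47 and -0.77 in bone marrow Fr.B/C. In fetal liver it was 0.15, 0.25, 0.43 and 0.35 in Fr.A and 0.28, 0.06, 0.68 and 0.62 in Fr.B/C. Every fetal liver array exceeded every bone marrow array, while the stages within each tissue overlapped. The difference was 1.14 ± 0.14 (SE), or 2.21-fold, in Fr.A (limma adjusted p = 1.45e-05). In Fr.B/C it was 0.85 ± 0.14, or 1.80-fold (limma adjusted p = 0.000271), at 0.422 in arrays 1 and 2 and 1.27 in arrays 3 and 4. With median centring the Fr.B/C difference was 0.61 and missed the threshold (limma adjusted p = 0.0543). The genome also holds a similar copy, Cdc34b, and whether the probe detects it was not tested.

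Cdc25a encodes a phosphatase that activates cyclin-dependent kinases at entry into S phase, and it was higher in fetal liver in Fr.B/C. Its ratio was -0.14, -0.33, 0.26 and 0.05 in bone marrow Fr.A and -0.15, 0.16, 0.36 and 0.24 in fetal liver Fr.A, which overlapped. In Fr.B/C it was -0.50, -0.75, -0.35 and -0.61 in bone marrow and -0.06, -0.18, -0.25 and -0.08 in fetal liver, with no overlap. The difference was 0.19 ± 0.13 (SE) in Fr.A (limma adjusted p = 0.309) and 0.42 ± 0.13, or 1.34-fold, in Fr.B/C (limma adjusted p = 0.0257). The Fr.B/C call was lost without bone marrow Fr.B/C array 1, 2 or 4 or fetal liver Fr.B/C array 1, 2 or 4 (differences 0.361 to 0.421, limma adjusted p from 0.0514 to 0.0839), with median centring (0.166, adjusted p = 0.708), with the array set as a random block (adjusted p = 0.14) and with array sets averaged (adjusted p = 0.0746). A second probe, which starts 120 bases away, gave 0.0865 ± 0.224 (SE) in Fr.A, against 0.442 ± 0.224 in Fr.B/C. For that probe the tissues overlapped at both stages.

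E2f5 and E2f6 encode E2F-family transcription factors that repress cell cycle genes, E2f5 together with pocket proteins and E2f6 without them. E2f5 read -1.30, -1.23, -1.72 and -1.70 in bone marrow Fr.A and -1.12, -1.01, -1.26 and -1.42 in bone marrow Fr.B/C. In fetal liver it read -0.37, -0.91, -0.60 and -0.77 in Fr.A and 0.03, -0.27, -0.14 and -0.52 in Fr.B/C. All 8 fetal liver arrays exceeded all 8 bone marrow arrays. The difference was 0.83 ± 0.14 (SE), or 1.77-fold, in Fr.A (limma adjusted p = 0.00038) and 0.98 ± 0.14, or 1.97-fold, in Fr.B/C (limma adjusted p = 9.93e-05). E2f5 had the lowest signals of the 9 genes, 120 to 314 intensity units before correction, and the offset of 50 shrinks the ratios of dim probes. In the deposited log2 ratios the differences were 1.31 and 1.41, and with the scanner's processed signals 1.38 and 1.47, larger than those of Cdc34 and Plagl2 under the same settings.

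E2f6 differed less. It read 0.995, 1.04, 1.03 and 1.06 in bone marrow Fr.A and 1.35, 1.16, 1.15 and 1.14 in fetal liver Fr.A. In Fr.B/C it read 0.53, 0.49, 0.74 and 0.90 in bone marrow and 0.98, 0.94, 1.28 and 1.17 in fetal liver. Fetal liver lay above bone marrow without overlap at both stages, and the difference passed in Fr.B/C, where it was 0.43 ± 0.10 (SE), or 1.35-fold (limma adjusted p = 0.00555). In Fr.A it was 0.17 ± 0.10 (limma adjusted p = 0.255). The Fr.B/C call was lost with median centring (0.32, limma adjusted p = 0.291) and when the arrays of each set were averaged (adjusted p = 0.0725).

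Plagl2 and Hic2 encode zinc finger transcription factors, and Plagl2 is a paralogue of the growth regulator Plag1. Plagl2 read 0.43, 0.24, 0.44 and 0.14 in bone marrow Fr.A and 0.23, 0.17, 0.02 and -0.16 in bone marrow Fr.B/C. In fetal liver it read 0.90, 0.54, 1.23 and 0.97 in Fr.A and 0.85, 0.74, 1.51 and 1.31 in Fr.B/C. Both fetal liver groups stood above both bone marrow groups, and the stages within a tissue overlapped. The Fr.B/C difference of Plagl2 was 1.04 ± 0.16 (SE) or 2.05-fold (limma adjusted p = 0.000135), at 0.595 in arrays 1 and 2 and 1.48 in arrays 3 and 4. Its Fr.A difference was 0.60 ± 0.16, or 1.51-fold (limma adjusted p = 0.00855), and missed the threshold with median centring (0.49, adjusted p = 0.0821) and with array sets averaged (adjusted p = 0.0829).

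Hic2 read 0.15, 0.55, 0.45 and 0.34 in bone marrow Fr.A and -0.09, 0.02, 0.40 and 0.25 in bone marrow Fr.B/C. In fetal liver it read 1.04, 0.66, 1.07 and 1.08 in Fr.A and 0.83, 0.89, 1.49 and 1.30 in Fr.B/C. As for Plagl2, no fetal liver array overlapped bone marrow. The difference was 0.59 ± 0.16 (SE), or 1.50-fold, in Fr.A (limma adjusted p = 0.0108) and 0.98 ± 0.16, or 1.98-fold, in Fr.B/C (limma adjusted p = 0.000261). Its second probe, which starts 1718 bases away, gave 0.896 ± 0.0953 in Fr.A, against 0.723 ± 0.0953 in Fr.B/C, so both probes separated the tissues. With the reported probe the Fr.A call was lost under median centring (0.361, limma adjusted p = 0.0621), with the array set as a random block (adjusted p = 0.0611) and in arrays 1 and 2 alone (adjusted p = 0.0767).

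The step from Fr.A to Fr.B/C split the 9 genes. In bone marrow 2 passed higher in Fr.B/C, Nras (0.47 ± 0.14 SE, limma adjusted p = 0.0141) and Cdc34 (0.41 ± 0.14, adjusted p = 0.0326). Another 3 passed lower: Cdc25a (-0.52 ± 0.13, limma adjusted p = 0.00622), E2f6 (-0.37 ± 0.10, adjusted p = 0.0118) and Igf1r (-0.39 ± 0.14, adjusted p = 0.0441). Among all genes 13.5% passed higher and 18.8% lower, and the median of the 9 was -0.23 beside -0.0385 for all genes. Each sort gave 1 sample of either fraction. With the sort as a block E2f5 (0.287, limma adjusted p = 0.0147) also passed higher and Plagl2 (-0.247, adjusted p = 0.0375) lower, making 3 higher and 4 lower of 9, beside 18.2% and 23.5% of all genes.

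In every one of the 4 bone marrow sorts, Nras and Cdc34 were higher and Cdc25a, E2f6 and Igf1r lower in Fr.B/C than in Fr.A. The step of Nras was 0.574, 0.598, 0.352 and 0.367 in sorts 1 to 4. That of Cdc25a was -0.364, -0.418, -0.615 and -0.669. Both had 1 sign in all sorts, and within the scan sessions that held both fractions Nras rose by 0.625, 0.352 and 0.367. Without the sort as a block, the call of Nras was lost without bone marrow Fr.A array 4 (0.407, limma adjusted p = 0.0516) or Fr.B/C array 1 (0.384, adjusted p = 0.0563) or 2 (0.363, adjusted p = 0.0559). The mean of both Nras probes gave 0.126 (limma adjusted p = 0.485), since the second probe had a step of -0.22. The Cdc34 call was lost without bone marrow Fr.A array 2, 3 or 4 or Fr.B/C array 1 or 2 (0.342 to 0.42, limma adjusted p from 0.056 to 0.107). The Igf1r call was lost without any 1 of bone marrow Fr.A arrays 2, 3 and 4, bone marrow Fr.B/C arrays 1 to 4 and fetal liver Fr.A arrays 1 and 3 (-0.416 to -0.327, limma adjusted p from 0.0532 to 0.128). E2f5 passed without bone marrow Fr.A array 2 (0.41, limma adjusted p = 0.0324). With median centring none of the 5 bone marrow calls passed.

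In fetal liver 1 of the 9 passed, E2f5, which was higher in Fr.B/C by 0.44 ± 0.14 (SE, limma adjusted p = 0.0363), and none passed lower. Over all genes 10.1% passed higher and 12.8% lower, and the medians were 0.17 for the 9 and 0.00156 for all. The E2f5 step was 0.399, 0.641, 0.461 and 0.245 in sorts 1 to 4, above 0 in all. The reported probe of Nras had steps of 0.559, 0.405, 0.203 and 0.302, also above 0 in all 4 sorts, and gave 0.37 ± 0.14 (limma adjusted p = 0.0664). Its second probe went the other way, at -0.23 ± 0.132 (SE), and the mean of both probes gave 0.0689 (limma adjusted p = 0.762). With the sort as a block Nras (limma adjusted p = 0.00435) and E2f5 (adjusted p = 0.00144) passed higher, and Cdc25a (-0.292, adjusted p = 0.0485) and Tgfbr1 (-0.441, adjusted p = 0.0348) passed lower, beside 14.5% and 17.8% of all genes. These block results are those of the reported probes. Without the block the second Cdc25a probe gave -0.0419 ± 0.224 (SE), and the mean of both Cdc25a probes -0.167 (limma adjusted p = 0.457). The Tgfbr1 steps were -0.0499, 0.0633, -0.897 and -0.882, so the large falls were those of sorts 3 and 4. Without the block E2f5 lost its call without fetal liver Fr.A array 2, 3 or 4 or Fr.B/C array 1, 2 or 3 (0.374 to 0.436, limma adjusted p from 0.0728 to 0.107), and with median centring (0.318, adjusted p = 0.277). Nras passed without bone marrow Fr.B/C array 2 (limma adjusted p = 0.0442) or 4 (adjusted p = 0.0478), and Cdc25a without fetal liver Fr.A array 1 (-0.417, adjusted p = 0.0227).

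**Figure D5:**
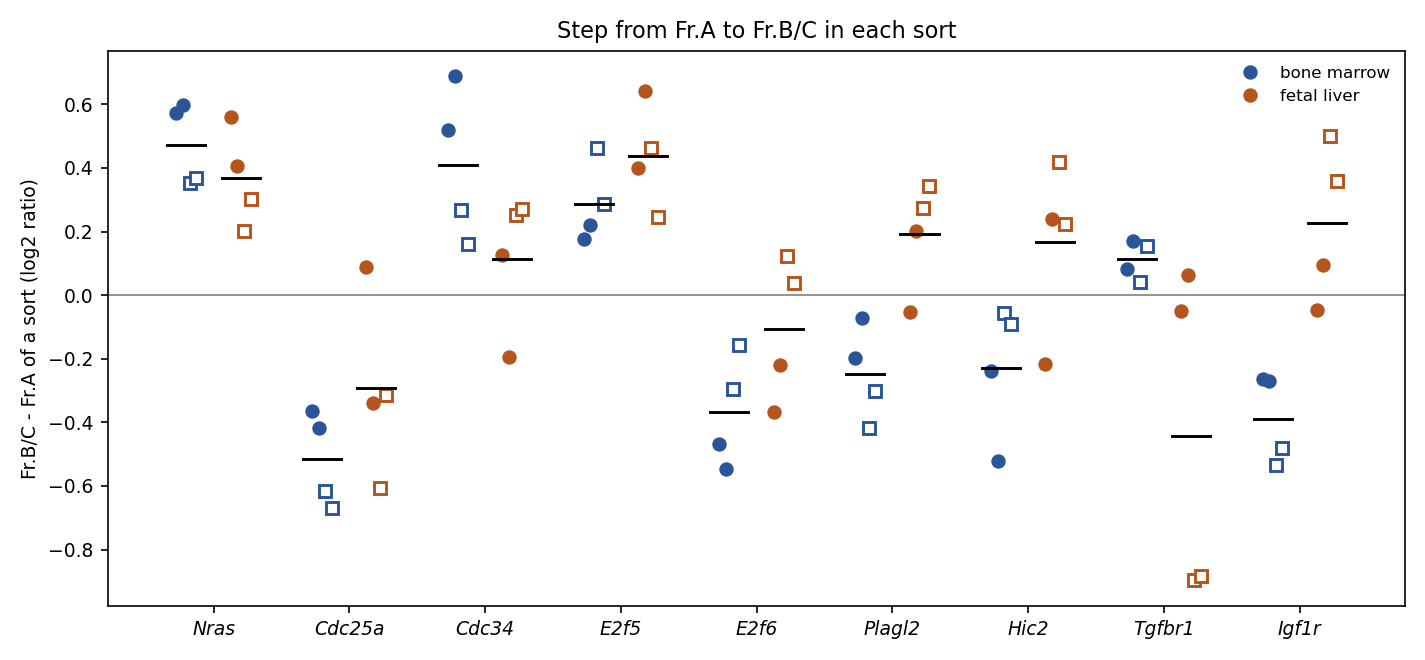
Step from Fr.A to Fr.B/C of each gene within each sort (vertical axis, log2 difference), for bone marrow and fetal liver. Each point is 1 sort, filled circles for sorts 1 and 2 and open squares for sorts 3 and 4, and the black line is the mean. The reported probe of each gene is shown. All 4 points of Nras and E2f5 are above 0 in both tissues, and those of Igf1r are below 0 in bone marrow.

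The interaction tests whether the tissue difference changed between the stages, which is also whether the step differed between the tissues. None of the 9 passed it in the fit with no block (limma), where 7.48% of all genes did, and 1 of the 9, Igf1r, had an unadjusted p under 0.05. The estimate for Igf1r was 0.61 ± 0.20 (SE, limma adjusted p = 0.0739). So the larger number of calls in Fr.B/C than in Fr.A is not a tested difference between the stages. With the sort as a block Igf1r (limma adjusted p = 0.00973) and Plagl2 (0.439, adjusted p = 0.0301) passed, beside 16.3% of all genes. The Igf1r step was -0.265, -0.271, -0.534 and -0.482 in the bone marrow sorts and -0.0462, 0.0936, 0.5 and 0.359 in those of fetal liver. All 4 bone marrow steps were thus below all 4 fetal liver steps. Without fetal liver Fr.B/C array 1 (0.723, limma adjusted p = 0.0334) or array 2 (0.725, adjusted p = 0.0325), Igf1r passed in the fit with no block as well.

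Other genes of the same pathways did not all share the members' direction. Their counts stand beside 12.3% of all genes higher and 17.3% lower in Fr.A, and 13.9% and 14.7% in Fr.B/C. Among 25 measured genes of the Ras pathway besides Nras, 3 were higher in fetal liver Fr.A, 7 lower and 15 did not pass, and in Fr.B/C 3 were higher, 4 lower and 18 did not pass (medians -0.0215 and -0.15). The paralogue Hras, itself a let-7 target, was higher in fetal liver Fr.A (0.41 ± 0.15 SE, limma adjusted p = 0.0497). The Hras call was lost without any 1 of bone marrow Fr.A arrays 2 to 4, bone marrow Fr.B/C arrays 1 to 4 and fetal liver Fr.A arrays 2 to 4 (0.331 to 0.464, limma adjusted p from 0.0511 to 0.151). The Ras inhibitors Nf1 and Rasa1, which speed the return of Ras to its inactive form, were lower at both stages. For Nf1 the differences were -0.43 and -0.48 (limma adjusted p = 0.000405 and 0.000168), and for Rasa1 -0.44 and -0.72 (adjusted p = 0.00432 and 8.54e-05). Rasgrp3, an activator of Ras, was higher in fetal liver Fr.A (1.00) and lower in Fr.B/C (-1.33), with an interaction of -2.33 (limma adjusted p = 2.64e-06).

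Of 15 measured genes of the insulin-like growth factor pathway, 3 were higher, 2 lower and 10 did not pass in Fr.A, and the counts were the same in Fr.B/C (medians -0.0131 and 0.112). Grb10, an adaptor that binds and dampens this receptor, was higher by 2.25 ± 0.15 (SE) in Fr.A and by 2.33 ± 0.15 in Fr.B/C (limma adjusted p = 2.24e-08 and 1.34e-08). Igf2r, which clears the ligand Igf2, was higher by 1.30 ± 0.11 and 1.61 ± 0.11 (limma adjusted p = 2.46e-07 and 1.89e-08). The related insulin receptor gene Insr gave 0.65 ± 0.24 in Fr.A (limma adjusted p = 0.0559) and -0.02 in Fr.B/C. Igfbp7, a secreted binding protein, was lower in fetal liver Fr.A (-2.18, limma adjusted p = 4.01e-08).

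Of 18 measured genes of the TGF-beta list none was higher in Fr.A and 6 were lower, and in Fr.B/C 2 were higher and 6 lower (medians -0.105 and -0.0101). Among all genes 17.3% and 14.7% were lower. The ligand Tgfb3 was lower, with differences of -1.92 ± 0.23 (SE) in Fr.A, against -1.42 ± 0.23 in Fr.B/C (limma adjusted p = 1.4e-05 and 0.000267). Smad7, an inhibitor that the pathway induces, gave -1.31 and -1.09 (limma adjusted p = 0.00261 and 0.0095), and the co-receptor Eng -0.75 and -0.83. Tgfbr2, the partner receptor that activates Tgfbr1, gave -0.04 (limma adjusted p = 0.859) in Fr.A and was lower in Fr.B/C (-0.45, adjusted p = 0.00725). Ski of the same list was lower in Fr.A (-0.497, limma adjusted p = 0.00123) but higher in Fr.B/C (0.774, adjusted p = 2.81e-05). Its interaction was 1.27 (limma adjusted p = 4.66e-05).

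Among 13 measured genes around CDC25 phosphatases, 6 were higher in Fr.A, 3 were in Fr.B/C, and none was lower in either (medians 0.296 and 0.115). Ccne1, the cyclin of the kinase that Cdc25a activates, was higher by 0.69 and 0.98 (limma adjusted p = 0.000346 and 1.33e-05). The paralogue Cdc25b was higher in fetal liver Fr.A (0.35, limma adjusted p = 0.0419) and rose far more with stage, by 2.45 ± 0.12 (SE) in bone marrow and 2.22 ± 0.12 in fetal liver (adjusted p = 7.58e-10 and 3.02e-09), where Cdc25a gave -0.52 and -0.29. The tissue call of Cdc25b was lost without arrays 2, 3 or 4 of either Fr.A group or fetal liver Fr.B/C array 3 (0.297 to 0.367, limma adjusted p from 0.0504 to 0.127). Of 13 measured genes around SCF ligases, the partners of Cdc34, 7 were higher in Fr.A and none lower, and in Fr.B/C 5 were higher and 2 lower (medians 0.333 and 0.199). The RING subunit Rbx1 was higher by 0.56 and 0.62 (limma adjusted p = 0.00462 and 0.00241) and the activating modifier Nedd8 by 0.73 and 0.43 (adjusted p = 0.00123 and 0.036). The Fr.B/C call of Nedd8 was lost without bone marrow Fr.B/C array 1, 2 or 4 or fetal liver Fr.B/C array 2, 3 or 4 (0.375 to 0.431, limma adjusted p from 0.0688 to 0.106). The scaffold Cul1 gave 0.80 and 0.62 with its brightest probe, but the mean of its kept probes gave -0.0756 in Fr.B/C (limma adjusted p = 0.715). The Cdc34 paralogue Ube2r2 gave -0.12 and 0.19 and did not pass.

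In the E2F and RB list 10 genes were measured: 1 was higher and 2 lower in Fr.A, and none higher and 2 lower in Fr.B/C (medians -0.141 and -0.0967). The lower genes included the pocket proteins Rb1 (-0.62 and -0.48, limma adjusted p = 2.1e-05 and 0.000265) and Rbl2 (-0.91 and -0.80, adjusted p = 0.00904 and 0.0201), which bind E2F factors. The Fr.B/C call of Rbl2 was lost without bone marrow Fr.B/C array 1 or 2 or fetal liver Fr.B/C array 3 or 4 (-0.716 to -0.65, limma adjusted p from 0.0659 to 0.0777). With stage, 5 of the 10 rose in bone marrow, 4 rose in fetal liver, and none fell. Among all genes 13.5% rose and 18.8% fell in bone marrow, and 10.1% rose and 12.8% fell in fetal liver. E2f2, an activator, rose by 1.41 ± 0.16 (SE) and 1.46 ± 0.16 (limma adjusted p = 5.4e-06 and 5.32e-06). The paralogues of the zinc finger members, Plagl1 (0.09 and 0.04) and Hic1 (0.08 and -0.02), did not pass between the tissues.

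Lin28b itself and the let-7 targets usually studied with it made up 6 measured genes, all of them higher in fetal liver at both stages. The share of all genes passing higher was 12.3% at the earlier stage, against 13.9% at the later one. This list was chosen with earlier results of these data known, so its count is not independent of them. The medians of the 6 genes, Lin28b included, were 3.18 and 2.86. These are larger than any difference of the 9 genes, the highest of which was 1.14. In bone marrow the probe of Lin28b was not well above background on any array, so its level there is only a bound. That probe passed the filter on dim probes through the fetal liver arrays. On the scale of the sample channel Lin28b was at least 11.8-fold higher in fetal liver Fr.A and at least 12.8-fold in Fr.B/C, and its log2 ratio to the reference differed by 3.40 and 3.66. A further 21 targets were measured, of which 8 passed higher, 4 passed lower and 9 missed the threshold in Fr.A (median 0.213). In Fr.B/C the counts were 5, 2 and 14 (median -0.0244). Hmga1, a chromatin protein, was higher by 0.97 and 1.57 (limma adjusted p = 0.000289 and 2.8e-06), with a saturated probe on 4 arrays. The cyclin gene Ccnd2 went the other way, at -1.33 and -1.80 (limma adjusted p = 1.04e-06 and 3.41e-08), and Ccnd1 was higher in Fr.A by 2.34 ± 0.08 (SE, adjusted p = 2.53e-11) and gave 0.13 in Fr.B/C. Of 14 measured genes of let-7 maturation and action, 3 were higher and 2 lower in Fr.A, and 2 higher and 3 lower in Fr.B/C.

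Across the 16 arrays, with the dye effect removed, the log2 ratios of Nras correlated most with those of Ttf2 (r = 0.981) and Ddc (r = 0.979), and those of E2f5 with Gpm6b (r = 0.971) and again Ddc (r = 0.966). For Cdc34 the most alike were Nme6 (r = 0.972) and Ube2f (r = 0.963), the latter encoding a NEDD8-conjugating enzyme. Hic2 was most like Zfp521 (r = 0.965) and Abcg1 (r = 0.964), and Plagl2 most like Cd59b (r = 0.95) and Rhd (r = 0.947). For E2f6 these were Syt11 (r = 0.955) and Midn (r = 0.943), for Cdc25a Adgrl1 (r = 0.962) and Wdr60 (r = 0.95), for Tgfbr1 Bag1 (r = 0.973) and Emc2 (r = 0.962), and for Igf1r Pvr (r = 0.949) and Kcna4 (r = 0.943). Among the 9 genes themselves Nras and E2f5 were the most alike (r = 0.956), followed by Plagl2 and Hic2 (r = 0.917), while Nras and Cdc25a gave 0.0747. These coefficients describe 16 arrays that share a reference, and they include the group differences.

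Markers of other cells and of proliferation moved with the groups. The summed sample signal of 21 of 22 proliferation genes was 201000 to 254000 in bone marrow Fr.A, 219000 to 284000 in bone marrow Fr.B/C, 242000 to 300000 in fetal liver Fr.A and 269000 to 321000 in fetal liver Fr.B/C. Of these 21 genes, 12 were higher in fetal liver Fr.A and 9 in Fr.B/C. The 12 erythroid genes, all measured, summed to 45600 to 55100, 18500 to 24500, 83700 to 161000 and 87700 to 139000 in the same order, so that fetal liver was higher. By gene 10 passed higher and 1 lower in fetal liver Fr.A, and 10 higher and none lower in Fr.B/C. Among all genes 12.3% passed higher and 17.3% lower in Fr.A, and 13.9% and 14.7% in Fr.B/C. The sums of 9 of 10 myeloid genes were lower in fetal liver, at 141000 to 243000, 62500 to 93200, 52700 to 72200 and 8590 to 19400. By gene 1 passed higher and 5 lower in fetal liver Fr.A, and none higher and 4 lower in Fr.B/C. The 13 of 15 B-lineage genes measured summed to 116000 to 174000, 214000 to 277000, 110000 to 125000 and 163000 to 190000, higher in Fr.B/C than in Fr.A of each tissue. By gene 8 rose and 1 fell with stage in bone marrow, beside 13.5% and 18.8% of all genes. In fetal liver 8 rose and 3 fell, beside 10.1% and 12.8%. The probe of Pax5, a defining B-lineage factor, did not pass the filter on dim probes. The sums of 12 NK and T cell genes were 14300 to 17200, 5010 to 6010, 4130 to 5020 and 2450 to 2660, and those of 7 plasmacytoid dendritic cell genes 43000 to 50900, 18100 to 18500, 18800 to 19400 and 8500 to 9430. Both sums were lower in fetal liver at the same stage, but not every gene was. Of the 12 NK and T cell genes none passed higher and 6 lower in Fr.A, and 1 higher and 4 lower in Fr.B/C. Of the 7 plasmacytoid dendritic cell genes 2 passed higher and 3 lower in Fr.A, and 1 higher and 3 lower in Fr.B/C. Ncr1, a defining NK gene, was not well above background outside bone marrow Fr.A. The sums of 5 of 6 stroma and endothelium genes were 421 to 461, 488 to 585, 536 to 602 and 1040 to 1200, those of 4 of 5 megakaryocyte genes 439 to 564, 330 to 465, 750 to 967 and 480 to 626, and those of 5 basophil and mast cell genes 1110 to 1220, 903 to 1310, 529 to 651 and 435 to 456. The first 2 of these were higher and the last lower in fetal liver. Hepatocyte genes were low, with 4 of 9 measured. Their sums were 1260 to 1810, 531 to 589, 768 to 815 and 430 to 485 in the same order, highest in bone marrow Fr.A. By gene 2 of the 4 passed lower in fetal liver Fr.A, and in Fr.B/C 2 passed higher and 1 lower. The probes of Alb, Apoa1, Apoa2 and Ttr did not pass the filter on dim probes. The part of these cells and of proliferation in the differences of the 9 genes was not tested.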

How the data were processed

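The deposited scanner output comes from Feature Extraction 8.5.1.1 and holds, per the file headers, mean and background intensity of each spot in both dyes. The deposited normalised table holds log2 ratios that were found to run as sample over reference; the submitters' processing notes name limma, and it was used as an alternative. Sample dyes (Cy5 on arrays 1 and 3, Cy3 on 2 and 4) are those of the labels. Background was corrected with normexp (offset 50) and each array with loess (limma 3.58.1, R 4.3.3), control spots having weight 0. Ratios were turned to sample over reference and spots of a probe averaged. A probe was kept if well above background on at least 3 of 4 arrays of a group and usable on at least 12 arrays (27522 of 41174 probes), and a gene took its brightest kept probe. This gave 21710 genes or transcripts, 14271 with a symbol. All 9 genes were matched through RefSeq accessions, with 13 probes, 12 of them kept. For the probe positions no build is given in the sources used here.

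The 16 arrays were fitted in 1 model of 4 groups plus dye, with Benjamini-Hochberg adjustment over all genes and a threshold of 0.05. Every one of the 9 genes is named, with the paralogues and partners of each, up to 4 genes of each other list by adjusted p, and the 2 genes most like each. Members and lists were chosen with earlier results of these data known. Same-numbered Fr.A and Fr.B/C samples come from 1 sort, per the labels' protocols, so the sort was used as a block for the steps. Their deviations correlated at 0.249 to 0.519 in all 8 pairs (median 0.402). Pairs of the same tissue and array set but with another number gave 0.211 to 0.424 (median 0.306). The correlation therefore does not separate the sort from the array set. Across tissues samples of the same number share no sort, and their deviations correlated at -0.266 to 0.481 (median 0.174). Pairs across tissues in the same array set but with another number gave 0.0153 to 0.492 (median 0.364). Those from different sets gave -0.518 to 0.183 (median -0.248). Deviations thus went with the array set across tissues, and the main fit has no term for it. With the set as a fixed term Tgfbr1 passed in Fr.A between the tissues (0.662, limma adjusted p = 0.00713).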

Additional observations from a re-analysis of the deposited data

Results flagged for a closer look

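Of 36 sets of 4 arrays (9 genes in 4 groups), 2 held an array far from the other 3, where chance alone gives about 1 in 20. In fetal liver Fr.A, E2f6 was 1.35 on array 1 and 1.14 to 1.16 on the others, and the gap was 0.887 of the range. In the same group Hic2 was 0.66 on array 2 and 1.04 to 1.08 on the others, a gap of 0.907 of the range. Both exceed Dixon's limit for 4 arrays. Array 1 was the higher one for E2f6 and array 2 the lower one for Hic2, so no single array stood out for both.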

How the results depend on the processing

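No called difference of the 9 genes changed sign under any alternative, but no alternative used a gene's second probe alone. The second Nras probe lay below 0 where the reported probe was called higher. It gave -0.0641 between the tissues at the earlier stage, -0.0733 at the later one and -0.22 for the bone marrow step. The second probes of Cdc25a and Hic2 kept the sign of each call. Of 1008 comparisons with the values reported, leaving out no array, 893 kept their side of the threshold, 73 lost it and 42 gained it. Alternatives with the array set as a fixed term, the sample channel alone, the scan session as a fixed block, or arrays 1 and 2 or 3 and 4 alone were chosen after seeing the data. Estimates that did not pass did change sign: with median centring Igf1r in Fr.A (-0.0699) and Tgfbr1 in Fr.B/C (-0.134), and without single arrays Tgfbr1 in Fr.B/C (down to -0.0647) and in the bone marrow step (down to -0.0688) and Nras in the interaction (0.00457). With Cy3 arrays only Tgfbr1 in Fr.B/C was -0.0272. In the fetal liver step this was so for Cdc34 in arrays 1 and 2 alone (-0.0337), Tgfbr1 there (0.00669) and E2f6 in arrays 3 and 4 alone (0.0809), and in the interaction for Cdc34 (0.048) and E2f5 (-0.0217) in arrays 3 and 4 alone. All 9 genes were well above background, but the low signal of E2f5 makes its size depend on the correction. Causes of the changes were not tested.

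Fr.A between tissues: 6417 genes passed, and 4050 with median centring, 2269 with Cy5 arrays only, 2076 with Cy3 arrays only, 3924 with array sets averaged, 3903 with the set as a random block and 10057 in arrays 3 and 4 alone. Of the 9 genes 5 were higher, and 3, 3 and 2 with median centring, Cy5 and Cy3. Fr.B/C between tissues: 6212 genes passed, and 1655 with Cy5, 1520 with Cy3, 3655 with sets averaged and 3544 with the set as a random block. Of the 9 genes 8 were higher, and 5, 4 and 3 with median centring, Cy5 and Cy3.

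Bone marrow step: 7018 genes passed, and 4108 with median centring, 2689 with Cy5, 2690 with Cy3, 4625 with sets averaged and 4549 with the set as a random block. The 2 higher members became 0 with median centring, scaling between arrays, Cy5, Cy3 and sets averaged, and 1 with the deposited table, the mean of kept probes, the set as a random block and only the groups compared. They were 0 to 2 when 1 array was left out. The 3 lower members became 0 with median centring, Cy5, Cy3 and the set as a random block, and 1 with scaling, sets averaged and arrays 1 and 2 alone.

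Fetal liver step: 4956 genes passed, and 2643 with median centring, 1687 with Cy5, 1273 with Cy3, 2870 with sets averaged, 2954 with the set as a random block and 9183 in arrays 3 and 4 alone. The 1 higher member became 0 with no background subtraction, median centring, scaling, no filter on dim probes, Cy5, Cy3, sets averaged and the set as a random block. It became 2 with the replicate block, the session as a random or fixed block, only the groups compared, the set as a fixed term and the sample channel alone, 6 in arrays 3 and 4 alone, and 0 to 2 without 1 array. Lower members were 0, and 2 with the replicate block, the session as a fixed block and arrays 3 and 4 alone, and 0 to 1 without 1 array.

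Interaction: 1623 genes passed, and 1073 with processed signals, 430 with median centring, 939 with scaling, 33 with Cy5, 11 with Cy3, 250 with sets averaged, 494 with the set as a random block, 2944 with a random session block, 2917 with the set as a fixed term, 2818 with the sample channel alone, 3236 with the session as a fixed block, and 707 and 6823 in arrays 1 and 2 and arrays 3 and 4 alone. Higher members were 0, and 1 under each of the random session block, the set as a fixed term and the sample channel alone, 2 with the session as a fixed block, 3 in arrays 3 and 4 alone (1 lower) and 0 to 1 without 1 array.

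With the replicate block 7542 genes passed in Fr.A, 7506 in Fr.B/C, 9037 in the bone marrow step, 7012 in the fetal liver step and 3539 in the interaction, with 2 higher members in the latter. Across tissues a shared number marks no shared sort, though it does mark the array set. Between the tissues the block gave Tgfbr1 an adjusted p of 0.0106 in Fr.A (limma) and changed no other call of the 9 genes. Among other named genes, 2 reversed: Cul1 in Fr.B/C with the mean of kept probes (-0.0756) and Grb10 in the interaction with processed signals (-0.965).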
